A study of Mus musculus with 11 samples.

Results

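Inflammatory cytokine transcripts, the prostaglandin synthase Ptgs2 and the cytokine feedback inhibitor Socs3 were examined in 11 whole mammary tumors of mice. The genes were chosen by name, as Osm, Lif, Il6, Il1a, Il1b, Tnf, Csf3, Csf2, Ptgs2 and Socs3, and each was taken as the probe set that carries its symbol on the array. Each had 1 probe set, which gave 10 genes of the 19505 with a symbol on the array. The rule itself uses no measured value, but the choice was made with earlier results of these data known.

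The tumors grew from E0771 cells, a mammary carcinoma line of C57BL/6 origin, placed orthotopically in a mammary fat pad (the fourth) of the C57BL6J strain. Before injection the cells were transduced with pLKO.1 lentivirus for a scrambled hairpin (scram, n = 4 tumors) or for 1 of 2 hairpins that target Pcx, which encodes the enzyme pyruvate carboxylase (shPC25 with 3 tumors, shPC28 with 4), and were selected with puromycin. The mice were female and untreated, the study states 1 age range and 1 diet for them, and the labels of all 11 tumors carry LFD without spelling it out. Values are log2 signals of Clariom S arrays, so that a difference of 1 is a change by a factor of 2. No label gives a hybridization batch. The study does not say how many transductions were made for each hairpin and mentions no repeat. Tumors of a group are therefore taken to repeat the mouse and not the transduced cells. RNA came from whole tumors, in which fewer cells of a type and less RNA per cell cannot be told apart.

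The oncostatin M, leukemia inhibitory factor and interleukin 6 proteins signal through receptors that share the subunit gp130, which activates Janus kinases and the transcription factor STAT3. STAT3 induces Socs3, whose protein binds gp130 and the kinases and ends the signal, so that Socs3 transcript is often read as a gauge of recent cytokine signaling. Interleukin 1 and tumor necrosis factor act through NF-kB, which induces Il6, Csf3, Csf2 and Ptgs2, and in mammary tumors such factors are known for recruiting neutrophils and macrophages and for activating fibroblasts.

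Pcx itself was dim, with a signal of 3.41 to 4.48 in scram, 3.12 to 3.42 in shPC25 and 2.32 to 3.76 in shPC28 tumors (-0.80 for both shPC groups minus scram, exact permutation p = 0.0212, limma adjusted p = 0.388). All values but the highest lay under 4.43, the 95th percentile of olfactory receptor probe sets, so this probe set says little about the depth of the knockdown. The study shows the knockdown in the cultured cells by immunoblot and qPCR. The first principal component of all probe sets held 16.8% of the variance. On it scram replicate 4 lay at 2.44, among the shPC tumors (-3.71 to 26.1) and away from the other scram tumors (-41.0 to -24.9). Krt8, the keratin of luminal mammary cells, was between 13.6 and 14.6 in every tumor, and Krt5 stayed as dim as olfactory receptor genes. The list mean of B cell and lymph node genes was high in shPC28 replicate 4 alone (8.01 against at most 4.24), although Cd79a of that list was at 5.44 to 7.61 in scram tumors.

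Upstream sequence is shown for Socs3 and for a pair of gp130 cytokines because these promoters hold, or lack, the letters that the factors of the pathway bind. The 250 bases before the annotated start come from RefSeq (GRCm38.p6), which matched 8 of the 10 genes, namely all but Osm and Csf3. They are written 5′ to 3′ on the strand of the gene, with capitals for the matches to a motif, and lie at chr11:117969367-117969616 (minus strand) for Socs3, chr5:30012864-30013113 (plus strand) for Il6 and chr11:4257318-4257567 (plus strand) for Lif.
Socs3: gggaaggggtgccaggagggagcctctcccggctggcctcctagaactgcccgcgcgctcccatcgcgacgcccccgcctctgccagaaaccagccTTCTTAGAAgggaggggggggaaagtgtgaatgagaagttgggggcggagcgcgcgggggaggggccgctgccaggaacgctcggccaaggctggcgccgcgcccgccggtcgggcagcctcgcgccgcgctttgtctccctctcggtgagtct
Il6: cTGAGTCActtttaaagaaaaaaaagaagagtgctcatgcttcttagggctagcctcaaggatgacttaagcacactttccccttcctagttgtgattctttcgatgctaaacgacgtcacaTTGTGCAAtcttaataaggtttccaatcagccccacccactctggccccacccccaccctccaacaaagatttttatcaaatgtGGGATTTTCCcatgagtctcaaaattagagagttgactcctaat
Lif: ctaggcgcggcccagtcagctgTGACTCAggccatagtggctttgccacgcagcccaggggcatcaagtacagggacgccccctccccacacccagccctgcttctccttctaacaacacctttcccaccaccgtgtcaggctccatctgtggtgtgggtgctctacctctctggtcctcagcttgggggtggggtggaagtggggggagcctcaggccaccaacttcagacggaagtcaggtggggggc

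Both strands were searched, and positions count back from the start. The STAT motif TTCNNNGAA was matched in 1 of the 8 promoters, that of Socs3 (TTCTTAGAA, -154 to -146), and in 7.18% of 27025 mouse promoters of the same length. The AP-1 motif TGANTCA was matched in 3, namely Il6 (-249 to -243), Lif (-228 to -222) and Il1a (-12 to -6), and in 6.87% of all. The NF-kB consensus was matched in Il6 alone (GGGATTTTCC, -44 to -35) and in 3.75% of all, and the C/EBP motif TTNCNNAA was matched in 6 of the 8 and in 36.9% of all. No match in the 3 printed promoters overlapped another.

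Across the 10 genes, every mean was lower in tumors with either Pcx hairpin than in scram tumors, and the largest mean differences were those of Csf3, Lif and Osm. None of the 10 passed an adjusted p below 0.05 by limma, where 3 of 22206 probe sets did (0.0135%). Socs3 and Osm came closest, and in both every tumor with a Pcx hairpin lay below every scram tumor. The median difference of the 10 genes was -1.0 for both shPC groups minus scram, beside a median of 0.02 over all probe sets, of which 46.4% were lower. At an unadjusted p below 0.05, 5 of the 10 were lower (Osm, Lif, Il1b, Csf3 and Socs3) and 0 higher, beside 4.76% of all probe sets called lower. Of all probe sets, 1058 were lower and 964 higher at that level, and after centring each array on its median 609 were lower and 1914 higher.

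**Figure D1:**
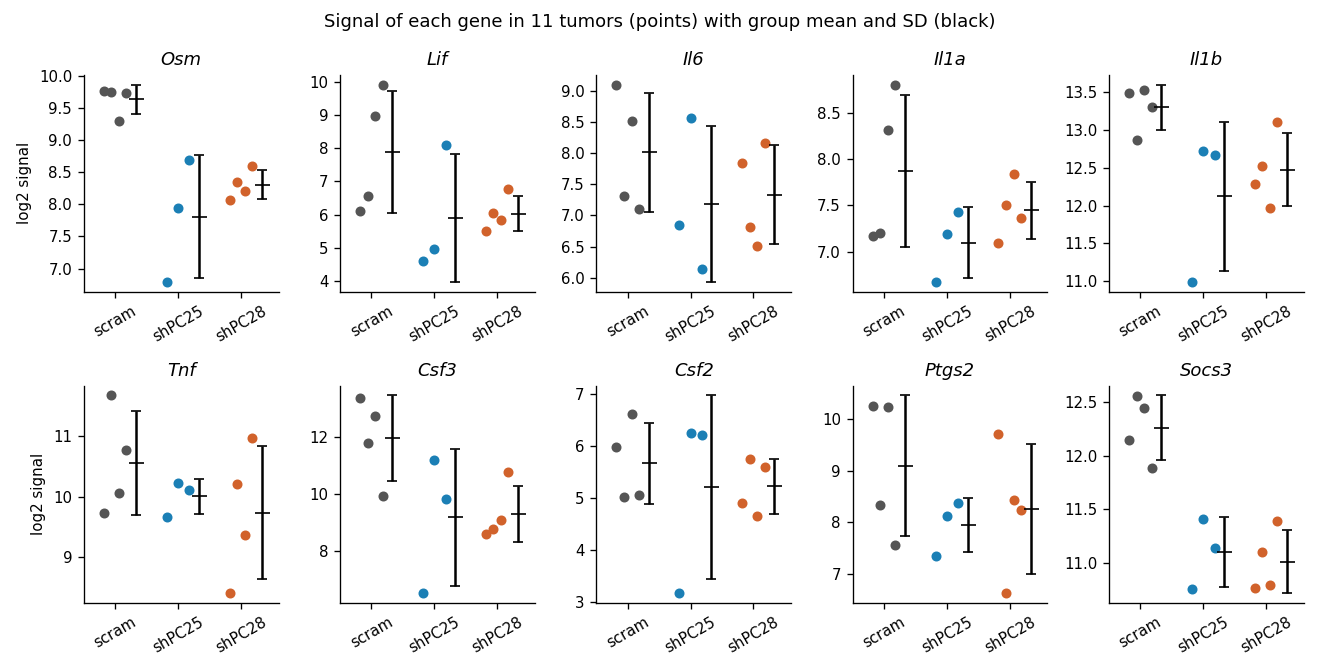
Log2 signal of the 10 genes (vertical axes, each with its own range) in scram, shPC25 and shPC28 tumors, 1 point for each tumor, with the group mean and SD in black. The scram points of Osm (9.30 to 9.77) and Socs3 (11.89 to 12.56) lie above all shPC points (up to 8.70 and 11.41), and in the other 8 genes the groups overlap.

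Osm encodes oncostatin M, a gp130 cytokine made mainly by neutrophils and macrophages. Its signal was 9.77, 9.75, 9.30 and 9.74 in scram replicates 1 to 4, 6.79, 7.94 and 8.70 in shPC25 replicates 1 to 3, and 8.07, 8.35, 8.21 and 8.60 in shPC28 replicates 1 to 4. The highest shPC tumor (8.70) lay below the lowest scram tumor (9.30), and shPC25 replicate 1 was the lowest of all. The group means were 9.64 ± 0.23 (SD, n = 4), 7.81 ± 0.96 (SD, n = 3) and 8.31 ± 0.23 (SD, n = 4). The difference of both shPC groups from scram was -1.58 (SE 0.29, 95% interval -2.22 to -0.95), a signal 2.99-fold lower. By an exact two-sided permutation test over 330 assignments of the tumors its p was 0.00303, the smallest this design allows, while the limma p was 0.00018 and 0.115 after adjustment over all probe sets. By that p Osm ranked 33 of 22206.

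Lif encodes leukemia inhibitory factor, another gp130 ligand, and is the neighbor of Osm on chromosome 11. Its signal was 6.12, 6.57, 8.98 and 9.93 in scram tumors, 4.59, 4.97 and 8.11 in shPC25 tumors, and 5.50, 6.04, 5.82 and 6.76 in shPC28 tumors. Scram replicates 3 and 4 and shPC25 replicate 3 were high, and the groups overlapped. The difference was -1.94 (SE 0.81, 95% interval -3.72 to -0.16), with an exact permutation p of 0.0576 and an adjusted p of 0.514 by limma. Without scram replicate 4 it was -1.26. The spread within groups was wide (pooled SD 1.52), about the size of that difference, in contrast to 0.52 for Osm.

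Il6 encodes interleukin 6, which stromal cells, macrophages and tumor cells can all make. Its signal was 9.10, 7.32, 8.52 and 7.11 in scram tumors, 6.84, 8.57 and 6.14 in shPC25 tumors, and 7.84, 6.82, 6.51 and 8.17 in shPC28 tumors. The groups overlapped widely, with scram replicates 2 and 4 below 3 of the 7 shPC tumors, and the difference was -0.75 (SE 0.53, 95% interval -1.91 to 0.41, limma adjusted p = 0.734), or -0.39 without scram replicate 1.

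Among the interleukin 1 genes, Il1b, whose product is cut by caspase-1 before release, was bright in every tumor. The Il1b signal was 13.49, 12.87, 13.53 and 13.31 in scram tumors, 10.99, 12.72 and 12.67 in shPC25 tumors, and 12.29, 12.53, 11.97 and 13.11 in shPC28 tumors. All shPC tumors but shPC28 replicate 4 lay below every scram tumor, and shPC25 replicate 1 was the lowest of all. The difference was -1.0 (SE 0.33, 95% interval -1.73 to -0.27), with an exact permutation p of 0.0242 and an adjusted p of 0.377 by limma.

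Il1a, which is active without that cut and lies next to Il1b on chromosome 2, was at 7.17, 7.20, 8.32 and 8.81 in scram tumors, 6.67, 7.19 and 7.43 in shPC25 tumors, and 7.09, 7.50, 7.84 and 7.36 in shPC28 tumors. Only scram replicates 3 and 4 stood above the shPC tumors, and the difference was -0.60 (SE 0.32, 95% interval -1.30 to 0.09, limma adjusted p = 0.615), or -0.29 without scram replicate 4. Tnf, the gene of tumor necrosis factor, was at 9.73, 11.68, 10.06 and 10.77 in scram tumors, 9.67, 10.23 and 10.12 in shPC25 tumors, and 8.41, 10.21, 9.37 and 10.97 in shPC28 tumors. The Tnf groups overlapped, shPC28 replicate 4 being higher than 3 of the 4 scram tumors, with a difference of -0.69 (SE 0.47, 95% interval -1.72 to 0.34, limma adjusted p = 0.723), or -0.31 without scram replicate 2.

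Csf3 encodes G-CSF, which drives the production of neutrophils and their release from bone marrow. Its signal was 13.35, 11.79, 12.72 and 9.92 in scram tumors, 6.55, 11.18 and 9.82 in shPC25 tumors, and 8.61, 8.77, 9.10 and 10.75 in shPC28 tumors. Scram replicates 1 to 3 stood above all shPC tumors, while scram replicate 4 lay below shPC25 replicate 2 and shPC28 replicate 4. The difference, -2.70 (SE 0.86, 95% interval -4.58 to -0.81), was the largest of the 10 genes, a signal 6.50-fold lower, and so was the spread within groups (pooled SD 1.62). Its exact permutation p was 0.0242 and its adjusted p by limma was 0.353.

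Csf2 encodes GM-CSF, a growth factor of macrophages and granulocytes. Its signal was 5.97, 5.01, 6.61 and 5.06 in scram tumors, 3.18, 6.25 and 6.20 in shPC25 tumors, and 4.91, 5.75, 4.65 and 5.59 in shPC28 tumors. Apart from shPC25 replicate 1 the groups overlapped widely, and that tumor's value lay under 4.43, the 95th percentile of the 1091 olfactory receptor probe sets, which stand for genes that a tumor does not express. The difference was -0.45 (SE 0.56, 95% interval -1.68 to 0.79, limma adjusted p = 0.865), and without shPC25 replicate 1 it was 0.06.

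Ptgs2 encodes cyclooxygenase 2, the inducible enzyme of prostaglandin synthesis. Its signal was 10.25, 8.34, 10.23 and 7.56 in scram tumors, 7.35, 8.11 and 8.37 in shPC25 tumors, and 9.70, 6.63, 8.42 and 8.24 in shPC28 tumors. Scram replicates 1 and 3 and shPC28 replicate 1 were high, the groups overlapped, and the difference was -1.0 (SE 0.62, 95% interval -2.37 to 0.37, limma adjusted p = 0.695). Leaving out scram replicate 1 gave -0.61, and leaving out scram replicate 4 gave -1.51.

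Socs3, the feedback inhibitor, had the smallest spread within groups (pooled SD 0.30) of the 10 genes. Its signal was 12.15, 12.56, 12.44 and 11.89 in scram tumors, 10.76, 11.41 and 11.14 in shPC25 tumors, and 10.77, 11.10, 10.80 and 11.39 in shPC28 tumors. The highest shPC tumor (11.41) lay below the lowest scram tumor (11.89), and the hairpin groups covered nearly the same range. The means were 12.26 ± 0.30 (SD, n = 4), 11.10 ± 0.33 (SD, n = 3) and 11.02 ± 0.29 (SD, n = 4). The difference of both shPC groups from scram was -1.20 (SE 0.19, 95% interval -1.61 to -0.79), a signal 2.30-fold lower, with an exact permutation p of 0.00303, again the smallest possible. The limma p was 4.1e-05, rank 9 of 22206 probe sets, and 0.0692 after adjustment. With a trended and robust prior variance the same difference passed the threshold (adjusted p = 0.0222), as did 15 lower and 7 higher probe sets over the array, and across all alternatives the adjusted p ran from 0.0222 to 0.184.

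Groups that do not overlap were found in 2 of the 10 genes, Osm and Socs3, beside 0.703% of all probe sets in which every shPC tumor lay below every scram tumor. Leaving out scram replicate 4 added Csf3, while over the array the count rose from 156 probe sets to 407. Leaving out scram replicate 2 (309 probe sets) or shPC28 replicate 4 (225 probe sets) added Il1b. Scram replicate 4 stood apart from its group on the first principal component, and shPC28 replicate 4 in lymph node genes. Without both of them there were 4 (Osm, Il1b, Csf3 and Socs3) beside 578 of 22206 probe sets, a comparison added after the values were seen.

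The hairpins were next taken one at a time against the same scram tumors. With shPC25 all 10 means were lower (47.3% of all probe sets), with a median difference of -1.15, and with shPC28 all 10 were lower again (47.5%), with a median of -0.84. No gene passed the adjusted threshold in either comparison, nor did any of the 22206 probe sets (0% in each). At an unadjusted p below 0.05, Osm, Il1b, Csf3 and Socs3 were lower with shPC25, beside 4.16% of all probe sets, and also with shPC28, beside 3.72%.

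Osm differed from scram by -1.83 with shPC25 (SE 0.35, limma adjusted p = 0.174) and by -1.33 with shPC28 (SE 0.33, limma adjusted p = 0.337). Socs3 differed by -1.16 (SE 0.23, limma adjusted p = 0.177) and by -1.25 (SE 0.21, limma adjusted p = 0.144), and Csf3 by -2.76 (SE 1.04) and -2.64 (SE 0.97). Every shPC25 tumor lay below every scram tumor in Osm, Il1b and Socs3, beside 3.4% of all probe sets, and every shPC28 tumor did so in Osm and Socs3, beside 2.12%. For Osm and Socs3 the exact permutation p was 0.0286 with each hairpin, the smallest that either comparison allows.

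**Figure D2:**
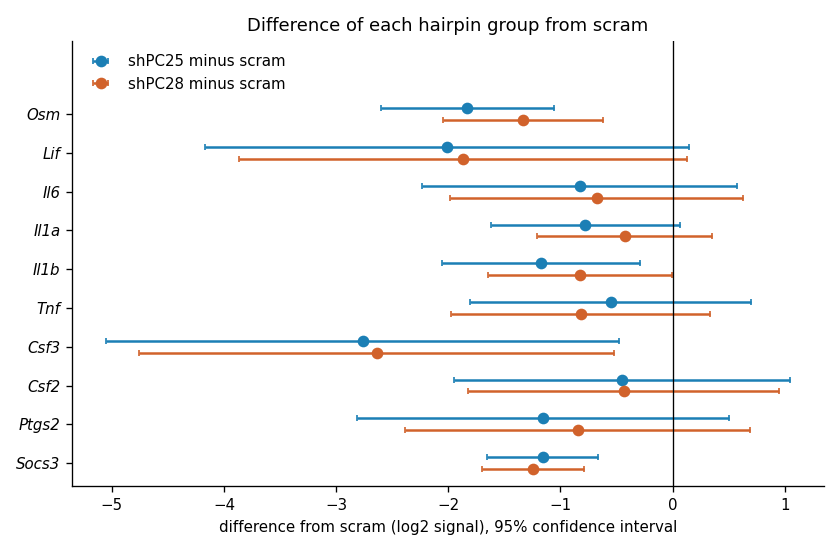
Difference of shPC25 (blue) and shPC28 (orange) tumors from scram tumors in log2 signal (horizontal axis) for each gene, with 95% confidence intervals from the fit across all probe sets. All 20 points lie below 0, and the intervals of Osm, Il1b, Csf3 and Socs3 stay below 0 with both hairpins.

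Set directly against each other, the hairpin groups differed by 0.50 in Osm (shPC28 minus shPC25, 95% interval -0.27 to 1.27) and by -0.09 in Socs3 (-0.58 to 0.41). None of the 10 genes had an unadjusted p below 0.05 in that comparison, beside 4.61% of all probe sets in either direction, and no probe set passed after adjustment (0%). The intervals were wide for Csf3 (0.12, -2.16 to 2.41) and Lif (0.14, -2.02 to 2.30), so differences of more than 2 in either direction lay within them. For Osm the value rested on shPC25 replicate 1, without which it was -0.01.

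**Figure D3:**
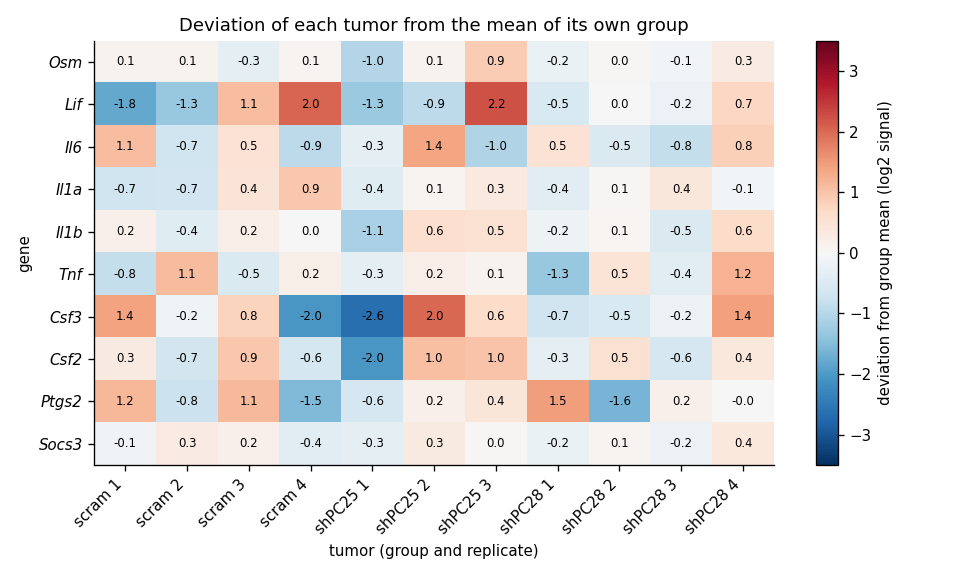
Deviation of each tumor (columns) from the mean of its own group in log2 signal, for each gene (rows), with red above and blue below the group mean and the value in each cell. Csf3 and Csf2 are farthest below their group mean in shPC25 replicate 1, Lif is farthest above its mean in shPC25 replicate 3 and scram replicate 4, and Socs3 deviates least.

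How the genes varied within groups was read from each tumor's deviation from its group mean, over 11 tumors and 45 pairs of genes. Of the pairs, 34 had a positive Pearson r, and 4 passed after Benjamini-Hochberg adjustment over the 45 by a permutation test. The test moved deviations freely across all 11 tumors, although those of a group cancel out, so its p-values are approximate and can be too small. By rank correlation 4 pairs passed too, with Csf3 and Socs3 in place of Csf3 and Csf2. Csf3 and Socs3 had rho = 0.818 (adjusted permutation p = 0.0414) and r = 0.747 (adjusted permutation p = 0.0655). Il1b and Csf2 deviated together most (r = 0.914, adjusted permutation p = 0.009, rho = 0.845, adjusted permutation p = 0.0414), and r was 0.888 without the 2 tumors farthest from the median. Lif and Il1a had r = 0.830 (adjusted permutation p = 0.0265, rho = 0.818, adjusted permutation p = 0.0414), and 0.771 without the 2 farthest tumors. These pairs are neither chromosomal neighbors nor of 1 receptor family.

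The pairs that are chromosomal neighbors deviated together less, with r = 0.474 for Osm and Lif (unadjusted permutation p = 0.143, rho = 0.164, unadjusted permutation p = 0.634) and r = 0.292 for Il1a and Il1b (unadjusted permutation p = 0.387, rho = 0.200, unadjusted permutation p = 0.559). Csf3 went with Csf2 (r = 0.820, adjusted permutation p = 0.0265, rho = 0.700, adjusted permutation p = 0.130) and with Il1b (r = 0.786, adjusted permutation p = 0.0405, rho = 0.809, adjusted permutation p = 0.0414). Without the 2 farthest tumors these were 0.616 and 0.579. In shPC25 replicate 1 all 10 genes lay below their group mean. Without that tumor no pair passed by Pearson r. It was 0.728 for Il1b with Csf2 (adjusted permutation p = 0.245), 0.808 for Lif with Il1a (0.245), 0.591 for Csf3 with Csf2 (0.454) and 0.515 for Il1b with Csf3 (0.455). The lowest r of Lif with Il1a with 1 tumor left out was 0.747, without scram replicate 4.

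Socs3 was followed among the 7 tumors with a Pcx hairpin, since scram and shPC tumors form separate clusters in its signal. There it was highest where Csf3 and Il1b were high, with rho = 0.964 for Csf3 (r = 0.853) and 0.929 for Il1b (r = 0.801). The exact permutation p adjusted over the 9 other genes was 0.025 and 0.0304 for these rank correlations and 0.0506 for both values of r, which did not pass. Tnf and Csf2 were nearly as close to Socs3 but passed by neither measure. Tnf had r = 0.825 and rho = 0.821 (adjusted exact permutation p = 0.0506 and 0.0768). Csf2 had r = 0.780 and rho = 0.857 (adjusted exact permutation p = 0.0665 and 0.0714). Leaving out the 2 tumors farthest from the median, shPC25 replicate 1 and shPC28 replicate 1, gave r = 0.845 for Csf3 and 0.916 for Il1b. Osm did not pass against Socs3 among these tumors (r = 0.500, adjusted exact permutation p = 0.382, rho = 0.429, adjusted exact permutation p = 0.530), with r = -0.01 without the same tumors.

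Over all 11 tumors the probe sets with the pattern most like that of Socs3, by Pearson r as a description, were Junb (0.933), Dram1 (0.918), Il1rl2 (0.913), Mmp14 (0.911) and Myh3 (0.911). Junb is a subunit of AP-1, Dram1 a lysosomal membrane protein of autophagy, Il1rl2 a receptor of the interleukin 1 family and Mmp14 a membrane-bound collagenase, while Myh3, an embryonic muscle myosin, was dim (1.86 to 2.86). Junb was 12.66, 12.68, 12.61 and 12.42 in scram tumors and 11.93 to 12.45 in shPC tumors. Of the other 9 genes, Csf3 stood at rank 48 (r = 0.844) and Osm at rank 58 (r = 0.838) in that order. The points share the group difference, so these values are high for any gene that differs between the groups.

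Other genes of the pathway were taken from lists, whose genes are named by smallest p. No gene of any list passed the adjusted threshold for both shPC groups minus scram. Beside the counts that follow stand the shares over all probe sets, of which 46.4% had a lower mean. At an unadjusted p below 0.05, 4.76% of all probe sets were lower (1058 of 22206), and 964 were higher. Of 6 further gp130 ligands measured, 3 were lower and 3 higher, with a median of -0.02 (-0.16 to 0.040 with 1 tumor left out), and 1, Il27, had an unadjusted p below 0.05 (-0.61, limma adjusted p = 0.505). Ctf1, cardiotrophin 1, differed by 0.31. Il27 was dim, at 4.54 to 4.84 in scram and 3.32 to 4.46 in shPC tumors, near the olfactory receptor 95th percentile of 4.43. Il11 and Ctf2 stayed within the olfactory receptor range in every tumor.

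Of the 12 receptor genes measured, 11 were lower, with a median of -0.63. At an unadjusted p below 0.05, beside 4.76% of all probe sets, 4 of them were lower. Those were Csf3r, the G-CSF receptor (-1.20, limma adjusted p = 0.410), Lifr (-0.84, limma adjusted p = 0.478), Csf2ra (-0.82, limma adjusted p = 0.498) and Tnfrsf1b (-0.47, limma adjusted p = 0.397). Il6st, the gene of gp130, had close levels in both (12.85 to 13.17 in scram and 12.72 to 13.18 in shPC tumors, difference -0.12), and Il6ra was the 1 receptor with a higher mean (0.53, and 0.076 without scram replicate 4). Osmr, the oncostatin M receptor, differed by -0.70, Il1r1 by -0.76, the decoy receptor Il1r2 by -0.84, Csf2rb by -0.56, Tnfrsf1a by -0.17 and Il1rap by -0.09, none with an unadjusted p below 0.05.

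Of 7 Janus kinase and STAT genes, 4 were lower and 3 higher with a median of -0.25, and none had an unadjusted p below 0.05. Stat3 differed by -0.26, Jak2 by -0.25 and Tyk2 by -0.30. All 14 genes listed as STAT3 targets were lower, with a median of -0.52. Of them, 8 had an unadjusted p below 0.05, beside 4.76% of all probe sets lower at that level. Saa3, an acute phase protein, was 15.02, 13.41, 12.93 and 10.84 in scram tumors and 8.37 to 12.52 in shPC tumors, and differed by -3.00 (SE 0.86, limma adjusted p = 0.294). Il4ra, an interleukin 4 receptor chain, differed by -0.77 (SE 0.21, limma adjusted p = 0.260) and Bcl3, an NF-kB cofactor, by -0.43 (SE 0.29).

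Of the other 7 SOCS genes, 3 were lower and 4 higher, with a median of 0.13 (-0.038 without scram replicate 2). Socs7 was 6.75, 6.94, 7.26 and 6.93 in scram tumors and 7.62 to 7.88 in shPC tumors. All its shPC values lay above all its scram values, and the difference was 0.75 (SE 0.12, limma adjusted p = 0.0729). Cish differed by -0.60 (SE 0.36, limma adjusted p = 0.680).

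The list named NF-kB feedback also holds subunits of NF-kB and other genes that it induces. All 15 genes of the list measured were lower, with a median of -0.28. Of them, 5 had an unadjusted p below 0.05, beside 4.76% of all probe sets lower at that level. Tnip1, which restrains NF-kB together with A20, was 14.20, 14.26, 14.03 and 14.19 in scram tumors and 12.97 to 13.71 in shPC tumors, without overlap, and differed by -0.72 (SE 0.16, limma adjusted p = 0.188). Ier3, an early response gene, differed by -0.44 (SE 0.14, limma adjusted p = 0.371). Without scram replicate 4 the median of this list was -0.46.

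Of 9 genes of interleukin 1 maturation and antagonism, 8 were lower with a median of -0.19 (-0.38 to -0.016 with 1 tumor left out, the latter without scram replicate 3), and none had an unadjusted p below 0.05. Il33 differed by -1.46 (SE 0.72) and by -0.60 without scram replicate 3, Nlrp3, the sensor of the inflammasome, by -0.86 (SE 0.48) and Il1rn, the receptor antagonist, by -0.44 (SE 0.29). Of 14 prostaglandin genes, 9 were lower and 5 higher with a median of -0.15, and at an unadjusted p below 0.05 there was 1 in each direction. Pla2g4a, the phospholipase that frees arachidonic acid and the chromosome 1 neighbor of Ptgs2, differed by -0.51 (SE 0.20), and Ptges3 by 0.26 (SE 0.11). Ptges, the inducible prostaglandin E synthase, differed by -0.18, Ptges2 by 0.06 and Hpgd, which inactivates prostaglandins, by -0.12.

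**Figure D4:**
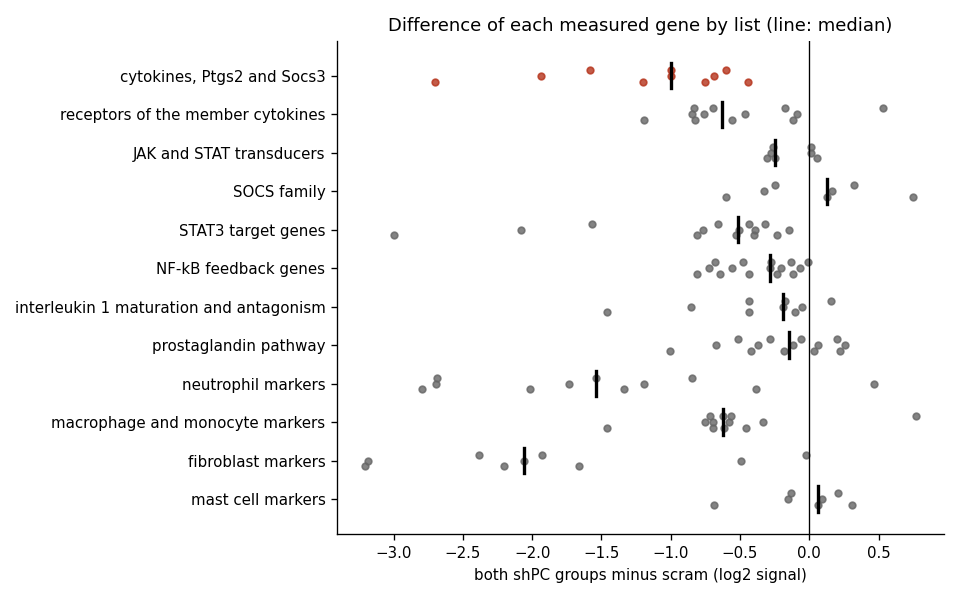
Difference of both shPC groups from scram in log2 signal (horizontal axis) for each measured gene (points) of the lists drawn (rows), with the list median as a black line and the 10 genes of interest in red. Not drawn are the lists of other gp130 ligands (median -0.02) and of T cell (0.23), B cell and lymph node (0.41), dendritic (-0.04), endothelial (0.22) and epithelial markers (-0.19). The receptor, STAT3 target, NF-kB, neutrophil, macrophage and fibroblast medians lie below 0, and those of the SOCS and mast cell lists lie at 0.13 and 0.06, both below 0 without 1 scram tumor (replicate 2 and replicate 4).

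Among cells that make or answer these cytokines, neutrophil, macrophage and fibroblast markers mostly had lower means in shPC tumors. Other cell types are given further below. Of 11 neutrophil markers, 10 were lower, with a median of -1.54. At an unadjusted p below 0.05, 8 were lower, beside 4.76% of all probe sets. The list mean ran from 7.69 to 9.82 in scram and from 6.60 to 8.20 in shPC tumors. Mmp9 differed by -2.79 and Retnlg by -2.69, and Camp stayed within the olfactory receptor range. Of 12 macrophage and monocyte markers, 11 were lower, with a median of -0.62 and list means of 11.90 to 12.50 against 11.41 to 12.27. At an unadjusted p below 0.05, 8 were lower, again beside 4.76% of all probe sets. The list median was -0.89 with shPC25 and -0.29 with shPC28. At an unadjusted p below 0.05, 9 markers were lower with shPC25 (4.16% of all probe sets) and 2 with shPC28 (3.72%). Cd14, the endotoxin coreceptor, differed by -1.46, and C1qc by -1.18 with shPC25 and -0.26 with shPC28. The 1 marker with a higher mean was Ly6c2 (0.77), a gene of inflammatory monocytes.

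All 9 fibroblast markers were lower, with a median of -2.06 and list means of 9.62 to 11.62 against 7.90 to 9.80. Of them, 7 had an unadjusted p below 0.05, beside 4.76% of all probe sets lower at that level. Thy1 differed by -2.06 (limma adjusted p = 0.0729) and Lum by -3.19 (limma adjusted p = 0.115). The part of these cells in the values of the cytokines and Socs3 was not tested. Csf3r stands in both the receptor and the neutrophil lists.

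Scram replicate 4 had the lowest neutrophil mean of its group, 7.69, the same as shPC28 replicate 4 and below shPC25 replicate 2 (8.20). Single markers of that list went either way. In scram replicate 4 Mmp9 was the highest of all tumors (14.16 against 9.96 and 11.67), and Retnlg was higher too (8.41 against 7.96 and 8.07). S100a9 (10.50 against 10.64 and 11.55) and Cxcr2 (7.21 against 8.06 and 8.54) were lower. Equal list means thus do not stand for equal markers. The Osm signal of scram replicate 4 was 9.74 against 8.60 and 7.94 in those 2 shPC tumors, and its Socs3 signal 11.89 against 11.39 and 11.41. The Csf3 signal was 9.92 in scram replicate 4 against 10.75 and 11.18. Its macrophage and monocyte list mean was 11.90 against 12.27 and 11.45, and its fibroblast list mean 9.62 against 9.04 and 9.73. These values rest on 1 scram tumor, and the part of cell content was not tested.

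**Figure D5:**
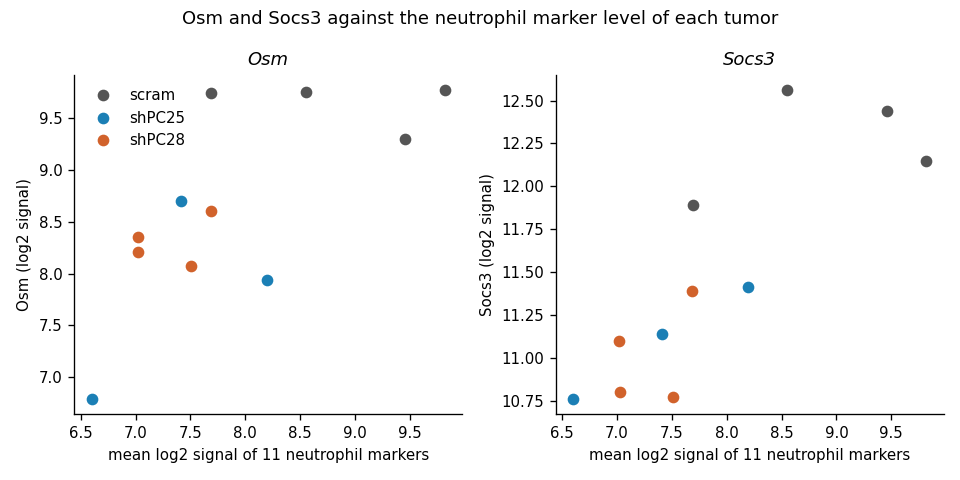
Log2 signal of Osm (left) and Socs3 (right) on the vertical axes against the mean log2 signal of 11 neutrophil markers on the horizontal axes, 1 point for each tumor, colored by group. Between 7.4 and 8.2 on the horizontal axis tumors of all 3 groups are present, and the 1 scram tumor there (replicate 4) lies above the shPC tumors in both plots. The marker mean of scram replicate 4 includes its Mmp9 signal of 14.16, the highest of all tumors. The part of neutrophil content in the differences was not tested.

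The remaining marker lists held no gene past the adjusted threshold either. Mast cell markers had a median of 0.06 (3 of 7 lower), or -0.225 with scram replicate 4 left out and 0.23 with scram replicate 1 left out. Tpsb2 differed by -0.69 and Fcer1a by 0.21, and the list mean ran from 3.94 to 5.75 in scram and from 4.30 to 5.06 in shPC tumors. Cma1, Fcer1a and Ms4a2 stayed within the olfactory receptor range in every tumor, and 1 of the 7 lay above it in every tumor. T cell markers had a median of 0.23 (1 of 7 lower), with Cd8b1 at 0.89 and Cd8a at 0.77. That median was -0.15 with shPC25 and 0.91 with shPC28, and 0.01 for both without shPC28 replicate 4, whose list mean of 8.75 was the highest. B cell and lymph node markers had a median of 0.41 (1 of 7 lower), with Cd79a at -1.18 and Ccl21a at 1.24. Without shPC28 replicate 4 these were -0.067, -1.73 and 0.52. None of the 7 B cell and lymph node genes lay above the olfactory receptor range in every tumor.

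Dendritic cell markers had a median of -0.04 (4 of 7 lower, and -0.17 to 0.15 with 1 tumor left out), with Batf3 at -0.52 and Itgax at -0.54. Clec9a and Zbtb46 stayed within the olfactory receptor range in every tumor, and 2 of the 7 lay above it in every tumor. Endothelial markers had a median of 0.22 (1 of 7 lower, and 0.021 without shPC25 replicate 1), with Tie1 at 0.50 and Tek at -0.50. Epithelial markers had a median of -0.19 (5 of 7 lower, and 0.0029 without scram replicate 4), with Krt14 at -2.10 and Krt5 at -0.57, and -1.02 where probe sets below the median level were left out. Only 1 of the 7 epithelial genes lay above the olfactory receptor range in every tumor.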

How the data were processed

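RNA of 11 E0771 tumors was hybridized to mouse Clariom S arrays by the authors, prepared with a whole transcript kit and analyzed in Transcriptome Analysis Console 4.0.1. The deposited values are log2 signals of 22206 probe sets, normalized between arrays by the authors, with array medians of 5.89 to 6.08. How probes were summarized, how background was corrected and which genome build underlies the annotation is not given in the sources used here. Neither scanner files nor detection flags entered. The number of arrays limits the precision.

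No filter or further normalization was applied. Of the probe sets, 19572 carried 1 symbol, 0 several and 2634 none. Where a gene of a list had several, the probe set of highest mean was taken. Groups came from the labels. Linear models with 1 mean for each group were fitted across all probe sets and 11 tumors in limma 3.58.1 under R 4.3.3, with 4 contrasts (both shPC groups averaged, each hairpin minus scram, and the hairpins against each other). All p-values are two-sided. The Benjamini-Hochberg adjustment covered all 22206 probe sets, and an adjusted p below 0.05 was called. Single values were tested by exact permutation of tumors without adjustment over genes and contrasts, and correlations by exact permutation or by 100000 permutations in Python 3.11.15 with scipy 1.17.1. The permutation tests compare the 7 shPC tumors together with scram, whereas the fit weighs the hairpins equally. The planned pooled correlation with Socs3 was replaced by deviations from group means and by the shPC tumors alone, because its groups do not overlap.

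The 10 genes and the lists were chosen with earlier results of these data known. The text names all 10 genes, the 2 genes of smallest p in each list, all receptors, Il1rn, Stat3, Jak2, Bcl3, Ptges, Ptges2 and Hpgd whatever their values, and the 5 symbols most like Socs3 other than predicted genes and olfactory receptors. Junb, Krt8, Il11, Ctf2, Ly6c2, Camp, S100a9, Cxcr2, Cma1, Ms4a2, Clec9a and Zbtb46 were named for their brightness, rank or direction after values were seen. Genes of the lists that were not matched to a probe set are not analysed here. Alternatives were quantile normalization, median centring, filters on dim probe sets, another prior variance, array weights, fits restricted to the groups compared, the methods' t-test, a replicate block, averaging over probe sets of 1 gene (lists only) and leaving out tumors. The fit was tested on simulated data.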

Additional observations from a re-analysis of the deposited data

Results flagged for a closer look

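Within groups of 4 tumors, the gap between the lowest or highest tumor and its nearest neighbor was set against the range of the group. Of 20 groups so examined (10 genes, scram and shPC28), 1 had a gap past the 95% limit of Dixon's test, which chance gives in about 1 of 20 groups. It was Osm in scram tumors, where scram replicate 3 was at 9.30 and the other 3 lay between 9.74 and 9.77. That tumor still lay above every shPC tumor (at most 8.70).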

How the results depend on the processing

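For both shPC groups minus scram, 9 of the 10 genes stayed lower under all 20 alternatives. Csf2 was lower under 18 of 19 and had no value where probe sets below the median level were left out. The difference ran from -1.80 to -1.33 for Osm (limma adjusted p 0.0518 to 0.279), from -1.39 to -1.10 for Socs3 (0.0222 to 0.184) and from -3.62 to -2.04 for Csf3. With a trended and robust prior 1 gene, Socs3, passed for both shPC groups averaged (limma adjusted p = 0.0222) and for shPC28 (limma adjusted p = 0.0484). With shPC25 Socs3 did not pass (limma adjusted p = 0.103). Over the array 15 probe sets were called lower and 7 higher for both shPC groups averaged, and 7 lower and 2 higher for shPC28. Without scram replicate 4 and shPC28 replicate 4 together, an alternative added after the values were seen, 4 genes had groups without overlap. With 1 tumor left out, genes at an unadjusted p below 0.05 numbered 4 to 6 (894 to 1160 of all probe sets lower), the median difference ran from -1.16 to -0.78, genes without overlap numbered 2 to 3 (191 to 407 of all probe sets) and genes past the threshold 0 to 0. Median centring moved the median of all differences from 0.02 to 0.11 for both shPC groups averaged and to 0.14 for shPC25.

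Most reversals concerned shPC28 minus shPC25, where values lay near 0. Lif was -0.18 with array weights, -0.32 with the replicate block and -0.10 without scram replicate 4 and shPC28 replicate 4 together, where Il6 was -0.13, Csf3 -0.36 and Csf2 -0.11. Csf2 was -0.066 with quantile normalization and -0.042 with median centring. With 1 tumor left out the ranges were -0.0125 to 0.94 for Osm, -0.51 to 1.25 for Lif, -0.37 to 0.84 for Il6, -0.22 to 0.65 for Il1b, -0.68 to 0.18 for Tnf, -1.19 to 1.12 for Csf3, -1.0 to 0.54 for Csf2, -0.18 to 0.84 for Ptgs2 and -0.26 to 0.065 for Socs3. Leaving out 1 tumor gave -0.97 to 0.56 for Csf2 with shPC25. For both shPC groups averaged it gave -0.71 to 0.0625 for Csf2, -0.52 to 0.14 for Hpgd, -0.17 to 0.0417 for Il1rap, -0.0258 to 0.12 for Ptges2 and -1.07 to 0.0321 for Tpsb2 (-1.115 without scram replicate 4 and shPC28 replicate 4 together), and Il1rap was 0.00313 with median centring. The cause was not tested.

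Deviations of same-numbered tumors had r from -0.18 to 0.14 over 10 pairs, 2 of them over 0.1, beside -0.14 to 0.17 for tumors of unlike number. No label states a pairing, and deviations within such small groups cannot exclude one. With the replicate block Socs3 differed by -1.20 (limma adjusted p = 0.132) and Osm by -1.55 (limma adjusted p = 0.190). Groups of 3 and 4 tumors and dim genes such as Csf2 limit what can be detected.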
